A study of Mus musculus with 6 samples.

Results

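The genes described here encode the major histocompatibility complex (MHC) molecules of the mouse and the proteins that load them with peptide. They were measured by RNA-seq in lung samples of old and young C57/BL6 mice that are labelled as vascular endothelial cells. Members were taken by symbol: every symbol that starts with H2- was included, with B2m, Tap1, Tap2, Tapbp, Tapbpl, Cd74, Ciita, Nlrc5 and Erap1. The mouse gene name table holds 54 such symbols, of which 39 belong to class I and 14 to class II, and 1 (H2-Ke6) is named for the region alone. Usable values were present for 34 of them, 27 of class I and 7 of class II, among 19033 genes with usable values in the series. The other 20 were not analysed here, and they include the class II invariant chain Cd74, the class II transactivator Ciita, the alpha chain H2-Aa, H2-DMb1 and the transporter subunit Tap2.

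The old group was 3 mice (old mice 1 to 3) and the young group was 3 mice (young mice 1 to 3), with 1 library per mouse. All 6 mice were of the C57/BL6 strain and all 6 are labelled with acid injury, so no uninjured lung enters the comparison. The labels give age only as old or young, with no age in months, sex or time after injury, and describe homogenised tissue as the source of the RNA. The values are FPKM, fragments per kilobase of gene and per unit of library depth, which are set per gene length and per library total. The totals implied by the values were 11381122 to 17931463 fragments per library.

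The labelled cell type was checked against marker genes. The old libraries went against the label, and young mice 2 and 3 also carried high levels of leukocyte markers. All 6 endothelial markers tested (Pecam1, Cdh5, Kdr, Tek, Tie1 and Erg) were lower in old mice (limma adjusted p below 0.05 for each), with a summed level of at most 35.2 FPKM in each old library and of 195.1 to 485.8 FPKM in the young ones. All 4 fibroblast markers tested (Col1a1, Col1a2, Lum and Dcn) were higher, at 1800 to 4211 FPKM against 101.6 to 200.6 FPKM. Libraries of the same group could also differ widely: the 4 neutrophil markers summed to 51.9 FPKM in young mouse 1 and to 23630 and 23960 FPKM in young mice 2 and 3. In young mice 2 and 3 the endothelial sum was 254.7 and 195.1 FPKM and the macrophage sum 1069 and 3151 FPKM. In bulk samples such as these, fewer cells of a type and less RNA per cell cannot be told apart.

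Class I molecules consist of a heavy chain and beta-2-microglobulin (B2m). They are found on nearly all nucleated cells, where they show peptides from the cytosol to CD8 T cells. The TAP transporter brings those peptides into the endoplasmic reticulum, where Erap1 trims them and tapasin (Tapbp) and its relative Tapbpl help to load them. Class II molecules are alpha and beta chain pairs, shown mainly by dendritic cells, macrophages and B cells to CD4 T cells, and endothelial cells can be induced to make them by interferon gamma. Their peptides are exchanged by H2-DM, whose action is held back by H2-DO, the pair of H2-Oa and H2-Ob. Most of these genes lie together on mouse chromosome 17.

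Promoter sequences are shown for the class II and class I genes that the comparison turns on. They come from RefSeq on build GRCm38.p6. A promoter was found for 24 of the 34 genes with values, and the 200 bases before each start site are given, 5′ to 3′ on the strand of the gene. The start sites are those of RefSeq and can differ from the GENCODE M21 gene coordinates given below. The H2-D1 and H2-DMb2 windows lie inside the M21 genes, and the H2-Oa and H2-Ob windows reach into them. The first set holds the class II genes H2-Oa, the gene that passed the test, H2-Ob, its partner in H2-DO, H2-Eb1, a beta chain, and H2-DMb2, a chain of H2-DM. Capitals mark the X box core (AGCAAC) and the Y box (TGATTGG) of class II promoters. The windows are chr17:34092179-34092378, chr17:34238705-34238904, chr17:34305667-34305866 and chr17:34145049-34145248, all on the plus strand.
H2-Oa: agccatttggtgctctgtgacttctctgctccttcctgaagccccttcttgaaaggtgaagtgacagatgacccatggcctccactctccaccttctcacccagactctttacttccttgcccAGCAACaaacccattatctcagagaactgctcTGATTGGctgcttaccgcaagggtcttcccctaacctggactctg
H2-Ob: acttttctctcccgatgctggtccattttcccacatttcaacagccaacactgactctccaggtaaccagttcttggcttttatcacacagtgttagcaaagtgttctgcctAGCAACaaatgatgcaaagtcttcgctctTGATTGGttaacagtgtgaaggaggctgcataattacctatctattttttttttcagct
H2-Eb1: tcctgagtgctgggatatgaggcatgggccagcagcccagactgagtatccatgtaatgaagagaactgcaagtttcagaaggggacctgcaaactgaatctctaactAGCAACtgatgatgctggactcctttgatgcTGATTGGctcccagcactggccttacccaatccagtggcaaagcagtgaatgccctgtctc
H2-DMb2: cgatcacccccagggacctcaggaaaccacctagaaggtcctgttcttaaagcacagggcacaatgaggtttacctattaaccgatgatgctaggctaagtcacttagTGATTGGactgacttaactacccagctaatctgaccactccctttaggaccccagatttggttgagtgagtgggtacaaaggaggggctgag

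The second set holds H2-D1 and H2-K1, the heavy chains of the highest level, whose ratio did not overlap between the groups. Capitals mark an NF-kB site (GGGGATTCCCC, the letters read from the H2-K1 promoter), the reverse complement of an interferon response core (GAANNGAAA, here TTTCACTTC) and, in H2-D1, the reverse complement of the Y box (CCAATCA). The windows are chr17:35262894-35263093 on the plus strand for H2-D1 and chr17:34000348-34000547 on the minus strand for H2-K1.
H2-D1: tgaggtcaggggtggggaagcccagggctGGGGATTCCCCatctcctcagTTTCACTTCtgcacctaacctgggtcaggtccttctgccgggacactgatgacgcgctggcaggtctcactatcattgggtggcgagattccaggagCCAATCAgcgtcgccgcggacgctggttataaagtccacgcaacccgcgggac
H2-K1: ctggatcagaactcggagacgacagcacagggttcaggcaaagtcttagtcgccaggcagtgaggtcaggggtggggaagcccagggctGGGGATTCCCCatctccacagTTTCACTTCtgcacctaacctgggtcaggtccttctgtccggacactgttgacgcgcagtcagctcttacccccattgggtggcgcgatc

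The X box core was present in the 250 bases before the start of 3 of the 5 class II genes with a promoter (H2-Oa, H2-Ob and H2-Eb1) and of 0 of the 19 class I genes. It was present in 12.2% of all 32851 RefSeq mouse promoters. The Y box was found in 4 of 5 class II and 9 of 19 class I windows, against 7.23% of all promoters. The interferon response core was found in 8 of 19 class I and 0 of 5 class II windows, against 6.31% of all, and the NF-kB site in 3 of 19 and 0 of 5, against 0.0304%. In H2-Oa the X box core began 77 bases and the Y box 45 bases before the RefSeq start site. Both strands were searched, no listed motif holds another, and the letters were settled after reading these promoters, so the shares describe the windows only.

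Class II genes had higher estimates in old mice, and 1 of the 6 tested passed. Differences were tested with limma on log2(FPKM + 1), with p-values adjusted by Benjamini-Hochberg over all 10010 genes with a mean of at least 1 FPKM, and a gene was called at an adjusted p below 0.05. Over all those genes 4.98% were called (2.95% higher and 2.03% lower in old mice), against 1 of 6 class II genes and 0 of 20 class I genes. All 6 class II estimates were above 0, with a median log2 fold change of 2.00 (range 1.09 to 2.36), and 4 of 20 class I estimates were above 0, with a median of -0.31 (range -0.95 to 1.22). The median over all tested genes was -0.01. Of the 34 genes with values 26 reached the minimum, and 8 were below it and not tested.

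**Figure D1:**
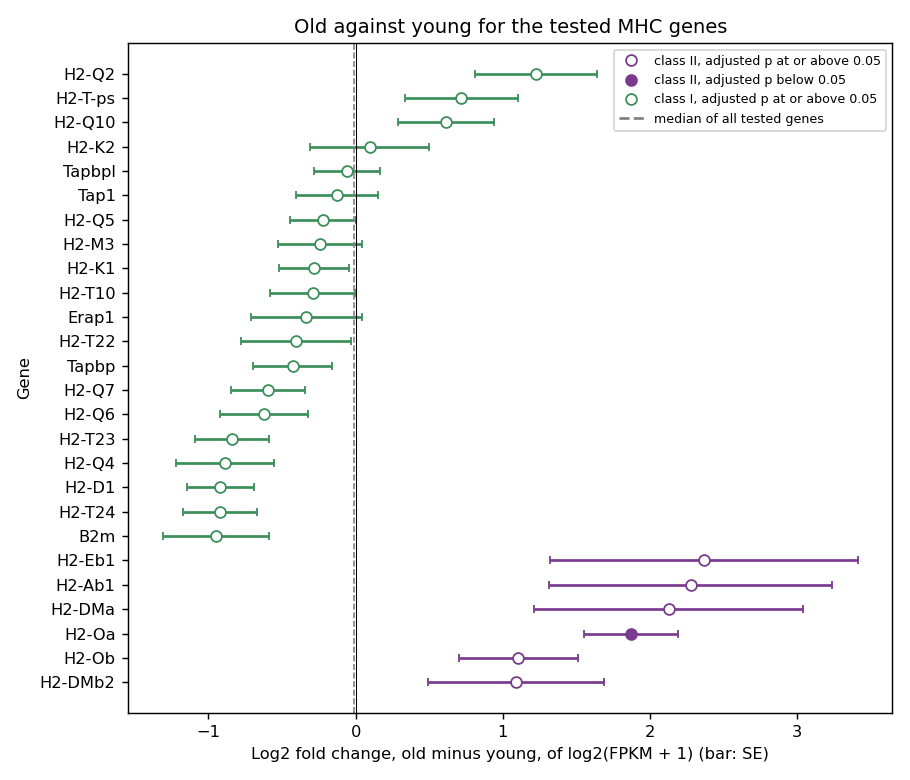
Log2 fold change of log2(FPKM + 1), old minus young (horizontal axis), for the 26 tested MHC genes (vertical axis), with bars of 1 SE, class I in green and class II in purple, a filled point for an adjusted p below 0.05 and a dashed line at the median of all tested genes. The 6 class II genes sit between 1.09 and 2.36 and H2-Oa alone is filled, while 16 of 20 class I genes sit below 0.

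H2-Oa, the alpha chain of the H2-DM inhibitor H2-DO, was the class II gene that passed the test, higher in old mice. It lies on chr17:34092340-34095234 (GRCm38, plus strand). Its level was 2.82, 4.28 and 5.60 FPKM in old mice 1 to 3 and 0.129, 0.294 and 0.868 FPKM in young mice 1 to 3, from at least 49, 64 and 132 fragments and at least 3, 6 and 17 fragments. Every old library was above every young library, a separation that 14.5% of all tested genes showed in this direction and 31.1% in either direction. Old mice averaged 4.23 ± 1.39 FPKM and young mice 0.430 ± 0.388 FPKM (SD, n = 3 each), a log2 fold change of 1.87 ± 0.32 (SE), or 3.65-fold on the FPKM + 1 scale (limma adjusted p = 0.0273). H2-Oa entered the test through its old level, since its young mean was under the minimum of 1 FPKM.

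The call was lost under several alternatives. With no filter on low genes the limma adjusted p was 0.0640, and with young mouse 1 as the only young library it was 0.0851. Without old mouse 1, 2 or 3 the limma adjusted p was 0.0502, 0.0836 and 0.0960, and without young mouse 1 or 2 it was 0.0635 and 0.0611, while the log2 fold change stayed between 1.68 and 2.08 with any 1 mouse left out. Without young mouse 3 the call held (adjusted p = 0.0469). Its partner H2-Ob, the beta chain of H2-DO, had 3.60, 2.62 and 4.07 FPKM in old mice 1 to 3 and 0.608, 0.429 and 2.70 FPKM in young mice 1 to 3. The groups overlapped in H2-Ob, since young mouse 3 was above old mouse 2, and its log2 fold change of 1.10 ± 0.40 did not pass (limma adjusted p = 0.167).

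The class II genes of the highest level were the beta chains H2-Ab1 and H2-Eb1. H2-Ab1 (chr17:34257689-34269419, plus strand) encodes the beta chain of I-A, the class II molecule that C57BL/6 mice display. Its level was 163.6, 397.7 and 563.9 FPKM in old mice 1 to 3 and 18.3, 59.9 and 276.7 FPKM in young mice 1 to 3. Young mice 1 and 2 were below every old mouse, but young mouse 3 was above old mouse 1. The means were 375 ± 201 FPKM and 118 ± 139 FPKM (SD, n = 3 each), and the log2 fold change of 2.27 ± 0.96 did not pass (limma adjusted p = 0.218). Leaving out young mouse 1 gave an estimate of 1.36, and leaving out young mouse 3 gave 3.28.

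H2-Eb1 (chr17:34305867-34316674, plus strand) encodes the beta chain of I-E, which C57BL/6 mice do not display because their alpha chain gene is inactive. Its level was 112.8, 260.8 and 338.8 FPKM in old mice and 8.91, 36.1 and 200.6 FPKM in young mice 1 to 3. It ranked the 6 libraries exactly as H2-Ab1 did, from old mouse 3 at the top through old mouse 2, young mouse 3, old mouse 1 and young mouse 2 to young mouse 1. The log2 fold change was 2.36 ± 1.04 (limma adjusted p = 0.235), and it was 1.32 when young mouse 1 was left out and 3.495 when young mouse 3 was.

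The H2-DM genes, whose product exchanges peptides on class II molecules, gave the same kind of overlap. H2-DMa had 52.3, 40.8 and 64.9 FPKM in old mice and 2.27, 9.42 and 50.8 FPKM in young mice 1 to 3 (log2 fold change 2.13 ± 0.91, limma adjusted p = 0.224). H2-DMb2 had 6.63, 13.3 and 6.07 FPKM in old mice and 1.06, 2.83 and 9.14 FPKM in young mice 1 to 3 (log2 fold change 1.09 ± 0.60, limma adjusted p = 0.319). Without young mouse 1 the estimates were 1.18 for H2-DMa and 0.56 for H2-DMb2, and without young mouse 3 they were 3.18 and 1.71. In both genes young mouse 3 was within the old range and young mice 1 and 2 were below it. H2-DMb2 shared 24.8% of its 50-base words with another gene, most of them with H2-DMb1, so its reads could be split between the copies and its value is uncertain.

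**Figure D2:**
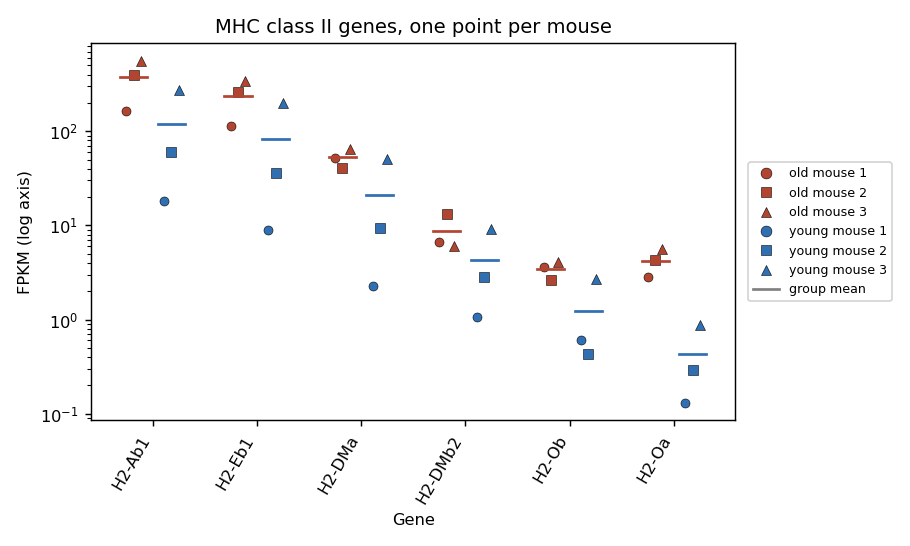
FPKM on a log axis (vertical) of the 6 tested class II genes (horizontal), with 1 point per mouse and a line at each group mean. Young mouse 3 overlaps the old libraries in 5 genes, and H2-Oa is the gene in which all 3 old mice are above all 3 young mice.

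Spread within the young group was wide for class II. Young mouse 3 exceeded young mouse 1 by 22.5-fold in H2-Eb1, 22.4-fold in H2-DMa, 15.1-fold in H2-Ab1, 8.66-fold in H2-DMb2, 6.74-fold in H2-Oa and 4.44-fold in H2-Ob. In the 20 class I genes the same ratio ran from 0.481 (H2-T22) to 5.75 (H2-Q2), so the classes overlapped in it. The old mice differed by 3.45-fold in H2-Ab1 and by 1.59-fold in H2-DMa between the highest and the lowest. Summed over the 6 genes, class II was at 341.6, 719.4 and 983.4 FPKM in old mice 1 to 3 and at 31.3, 109.0 and 540.8 FPKM in young mice 1 to 3.

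Markers of the cell types that carry class II varied in the same libraries. The macrophage list (0 of 8 tested called by limma) summed to 481.5, 1468 and 2520 FPKM in old mice 1 to 3 and to 230.3, 1069 and 3151 FPKM in young mice 1 to 3. Mrc1 (log2 fold change -1.85) gave 83.4 FPKM of the sum in young mouse 1. That was its highest library, while every other gene of the list was lowest there. Within each group the macrophage sum and the class II sum ranked the mice alike, but young mouse 3 had the highest macrophage sum of all 6 and a class II sum below those of old mice 2 and 3. The B cell list (0 of 2 tested) summed to 12.8, 30.8 and 21.1 FPKM in old and 3.13, 4.57 and 15.1 FPKM in young mice. In the dendritic cell list 1 of 5 tested genes was called, Siglech, a receptor of plasmacytoid dendritic cells, higher in old mice (log2 fold change 2.00 ± 0.34, limma adjusted p = 0.0274). Siglech was at 5.32, 4.60 and 6.48 FPKM in old and 0.484, 0.114 and 1.51 FPKM in young mice 1 to 3, and it too entered the test through its old level. Zbtb46, a transcription factor of conventional dendritic cells, ran the other way without overlap, at 0.925, 2.18 and 2.29 FPKM in old and 12.4, 4.79 and 4.04 FPKM in young mice 1 to 3 (log2 fold change -1.43 ± 0.43, limma adjusted p = 0.110). Zbtb46 ranked the 6 libraries as the endothelial marker sum did. In young mouse 1 it made up 12.4 of the 15.7 FPKM of the dendritic cell list. The part of endothelial cells in the Zbtb46 values was not tested. The other 3 genes tested were Flt3 (log2 fold change 1.60), Ccr7 (1.33) and Itgax (-0.03), none of which passed. The dendritic cell list summed to between 21.6 and 26.3 FPKM in the old libraries and between 7.07 and 18.4 FPKM in the young ones. No gene with values in these lists was at 0 in all libraries of a group, and the part of these cell types in the class II values was not tested.

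**Figure D3:**
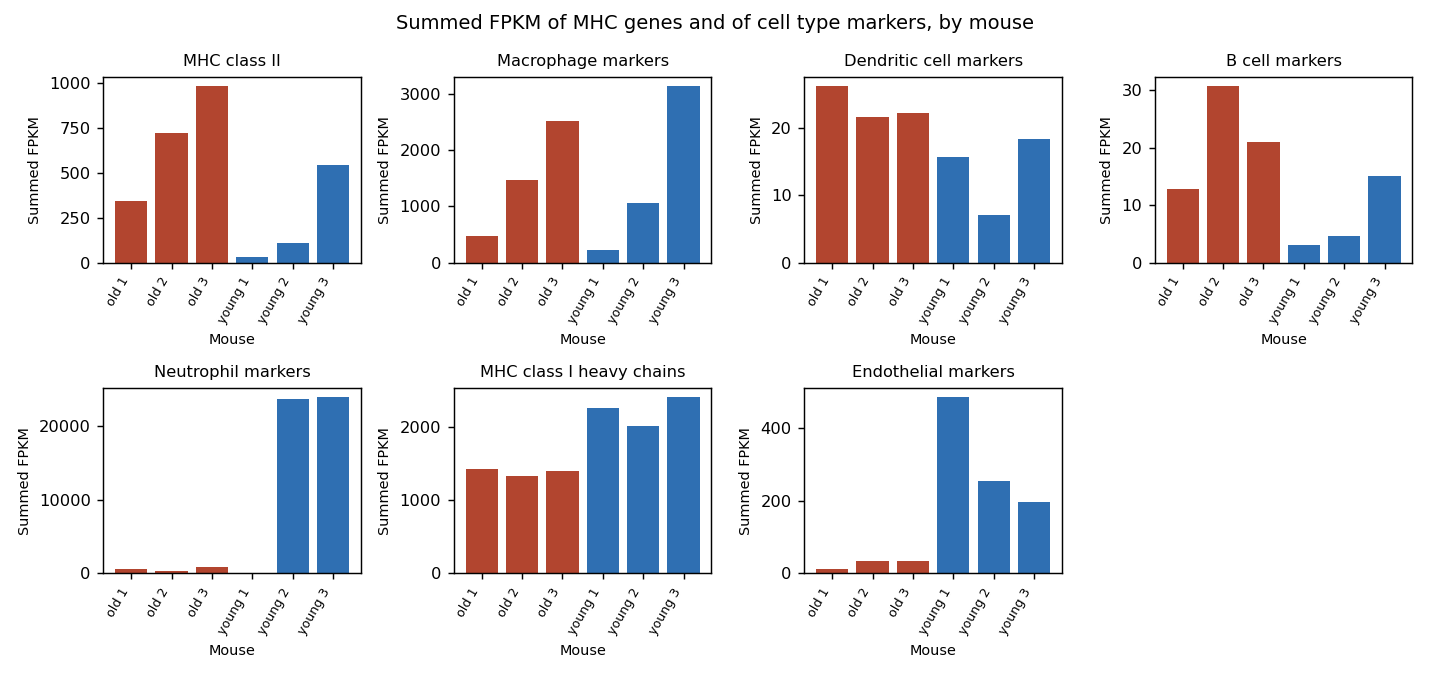
Summed FPKM (vertical axes, linear from 0, each panel with its own scale) of the tested class II genes, the tested class I heavy chains and 5 marker lists, with 1 bar per mouse (horizontal), old in red and young in blue. Class I heavy chains stay between 1330 and 2409 FPKM in all 6 mice, while the class II sum runs from 31.3 FPKM in young mouse 1 to 983.4 FPKM in old mouse 3.

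Class I genes had mostly lower estimates in old mice, and none of the 20 tested passed by limma (7 had an unadjusted p under 0.05, a share of 23.1% over all genes). The groups did not overlap in 8 of the 20: H2-Q2 was higher in every old mouse, and B2m, H2-D1, H2-Q4, H2-Q6, H2-Q7, H2-T23 and H2-T24 were lower in every old mouse. In H2-Q2 the gap was narrow, at 0.921 FPKM in old mouse 3 against 0.892 FPKM in young mouse 3. Separation in these directions occurred in 14.5% (higher) and 16.7% (lower) of all tested genes. Of the 15 heavy chain genes tested 11 had estimates below 0, as did all 5 accessory genes. Those 15 include H2-K2 and H2-T-ps, which GENCODE M21 types as pseudogenes and whose estimates were above 0. They also include H2-Q5 and H2-T10, typed as polymorphic pseudogenes, with estimates below 0. With 1 mouse left out, the log2 fold change ran from -0.37 to -0.18 for H2-K1, from -0.75 to -0.41 for H2-Q6, from -1.14 to -0.57 for H2-Q4, from -0.50 to -0.06 for H2-M3 and from -0.585 to -0.06 for H2-T22. The class I heavy chains, with these pseudogenes included, summed to 1426, 1330 and 1390 FPKM in old mice 1 to 3 and to 2254, 2010 and 2409 FPKM in young mice 1 to 3. The endothelial markers were lower and the fibroblast markers higher in the same old libraries, at the sums given above, and their part in the class I and class II values was not tested.

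B2m (chr2:122147686-122153083, plus strand), the shared light chain of class I, had 2849, 4482 and 3389 FPKM in old mice 1 to 3 and 6168, 4967 and 10151 FPKM in young mice 1 to 3. Every old library was below every young library. The means were 3573 ± 832 FPKM and 7096 ± 2714 FPKM (SD, n = 3 each), and the log2 fold change of -0.95 ± 0.36 did not pass (limma adjusted p = 0.176).

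H2-D1 (chr17:35262730-35267499, plus strand), a classical heavy chain, varied little within each group. Its level was 720.9, 677.9 and 712.0 FPKM in old mice and 1309, 1235 and 1458 FPKM in young mice 1 to 3. The groups did not overlap, with means of 703.6 ± 22.7 FPKM and 1334 ± 114 FPKM (SD, n = 3 each). The log2 fold change was -0.92 ± 0.23 (limma adjusted p = 0.0682, with 0.0451 to 0.259 over the alternatives), and library weights estimated from the data gave the lowest of those.

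H2-K1 (chr17:33996017-34000347, minus strand), the other classical heavy chain measured, had 457.1, 375.6 and 375.3 FPKM in old mice and 466.0, 444.4 and 557.5 FPKM in young mice 1 to 3. Old mouse 1 was above young mouse 2, so the groups overlapped. The log2 fold change was -0.28 ± 0.24 (limma adjusted p = 0.510). The ratio of H2-D1 to H2-K1 within a library was 1.58, 1.80 and 1.90 in old mice and 2.81, 2.78 and 2.61 in young mice 1 to 3. Every old ratio was below every young ratio (exact permutation test, two-sided p = 0.1, the smallest that 3 against 3 allows; Benjamini-Hochberg adjusted p = 0.267 over 8 ratios examined). The difference in mean log2 ratio, old minus young, was -0.64, and it stayed between -0.70 and -0.56 when any 1 mouse was left out. The 8 ratios were chosen after the values were seen.

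Class I heavy chain genes resemble each other in sequence, and their reads could be split between copies. By GENCODE M21 transcripts, H2-D1 shared 12.8% and H2-K1 9.63% of their 50-base words with another gene, and the share was 36.4% for H2-Q5, 34.5% for H2-T22 and 32% for H2-Q6. Values of the heavy chain genes are therefore uncertain, whereas B2m, H2-Oa, H2-Ob, H2-Ab1, H2-Eb1 and H2-DMa shared 0% of theirs.

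**Figure D4:**
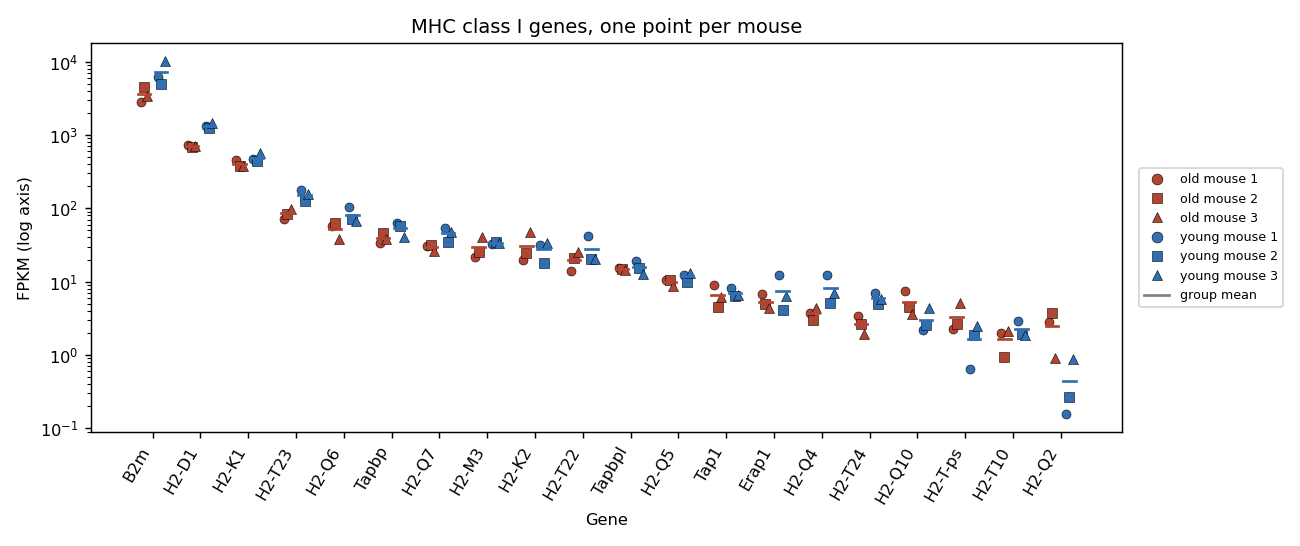
FPKM on a log axis (vertical) of class I genes (horizontal), with 1 point per mouse and a line at each group mean. B2m, H2-D1 and H2-T23 are lower in all 3 old mice, while H2-K1, Tap1 and Tapbpl overlap between the groups.

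Among the nonclassical heavy chains, H2-T23 (chr17:36029773-36032855, minus strand) encodes Qa-1, which is recognised by the inhibitory receptor CD94-NKG2A. It had 72.4, 84.2 and 98.6 FPKM in old mice and 176.8, 126.3 and 155.9 FPKM in young mice 1 to 3, with no overlap between groups. The log2 fold change was -0.84 ± 0.25 (limma adjusted p = 0.108).

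H2-Q6 and H2-Q7 encode Qa-2 molecules. H2-Q6 had 57.7, 62.0 and 38.0 FPKM in old and 104.5, 71.1 and 68.0 FPKM in young mice 1 to 3 (log2 fold change -0.62 ± 0.30, limma adjusted p = 0.268). H2-Q7 had 30.8, 31.3 and 25.7 FPKM in old and 53.8, 34.9 and 47.1 FPKM in young mice 1 to 3 (log2 fold change -0.60 ± 0.25, limma adjusted p = 0.214). Both were lower in every old mouse than in every young mouse. The ratio of H2-Q6 to H2-Q7 overlapped between the groups, at 1.48 to 1.98 in old and 1.44 to 2.04 in young mice (exact permutation test, two-sided p = 0.8).

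Other heavy chain genes overlapped between the groups. H2-M3, which presents N-formylated peptides, had 21.7, 25.2 and 41.0 FPKM in old and 33.0, 34.3 and 33.5 FPKM in young mice 1 to 3. H2-K2, a transcribed pseudogene, had 19.8, 24.9 and 47.5 FPKM in old and 31.3, 17.9 and 33.9 FPKM in young mice 1 to 3. H2-T22, a ligand of some gamma delta T cell receptors, had 13.8, 20.9 and 25.2 FPKM in old and 42.4, 20.2 and 20.4 FPKM in young mice 1 to 3. Old mouse 3 was highest in H2-M3 and H2-K2, and young mouse 1 in H2-T22. Their log2 fold changes were -0.24, 0.10 and -0.41, and the sign of H2-K2 turned when old mouse 3 or young mouse 2 was left out.

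Groups also stood apart in H2-T24, H2-Q4 and H2-Q2, all at low levels and named here for that separation after their values were seen. H2-T24 had 3.43, 2.66 and 1.94 FPKM in old and 6.96, 4.93 and 5.87 FPKM in young mice 1 to 3 (limma adjusted p = 0.0861). H2-Q4 had 3.79, 2.98 and 4.34 FPKM in old and 12.4, 5.06 and 6.90 FPKM in young mice 1 to 3 (limma adjusted p = 0.174). H2-Q2 ran the other way, at 2.84, 3.79 and 0.921 FPKM in old and 0.155, 0.266 and 0.892 FPKM in young mice 1 to 3 (log2 fold change 1.22 ± 0.41, limma adjusted p = 0.140), and like H2-Oa it entered the test through its old level. The remaining heavy chain genes tested (H2-Q10, the polymorphic pseudogenes H2-Q5 and H2-T10, and the pseudogene H2-T-ps) overlapped between the groups, with log2 fold changes of -0.29 to 0.72 and limma adjusted p of 0.310 to 0.585.

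The peptide supply genes of class I did not pass the test. The transporter subunit Tap1 had 8.91, 4.49 and 6.09 FPKM in old and 8.13, 6.32 and 6.52 FPKM in young mice 1 to 3 (log2 fold change -0.13 ± 0.28, limma adjusted p = 0.819). Tapasin (Tapbp), which bridges TAP and the heavy chain, had 33.2, 46.7 and 38.4 FPKM in old and 62.5, 57.7 and 40.9 FPKM in young mice 1 to 3 (log2 fold change -0.43 ± 0.27, limma adjusted p = 0.369). In both genes the groups overlapped.

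The peptide editor Tapbpl had 15.1, 14.6 and 14.5 FPKM in old and 18.8, 15.1 and 12.9 FPKM in young mice 1 to 3 (log2 fold change -0.06 ± 0.23). The trimming enzyme Erap1 had 6.73, 4.93 and 4.39 FPKM in old and 12.1, 4.14 and 6.32 FPKM in young mice 1 to 3 (log2 fold change -0.33 ± 0.38). Young mouse 1 was the highest library in both, and without it both estimates were above 0. Nlrc5, the transactivator of class I genes, was below the minimum of 1 FPKM on average and was not tested. Its level was 0.623, 0.333 and 0.744 FPKM in old and 1.09, 0.581 and 2.09 FPKM in young mice 1 to 3, and the groups overlapped through young mouse 2.

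The remaining genes under the minimum were the polymorphic pseudogene H2-Bl, H2-M2, H2-M5, H2-M9, H2-Q1, H2-T3 and the class II pseudogene H2-Pb, with means of 0.0531 to 0.476 FPKM over the 6 libraries. H2-T3, which encodes the thymus leukaemia antigen, had 42 fragments (1.35 FPKM) in old mouse 2, 1 fragment in old mouse 3 and 0 in the other 4 libraries. A count of 0 in a library allows up to 3 by counting error alone. H2-Bl had 11 and 23 fragments in old mice 1 and 2, 1 in young mouse 1 and 0 in the others.

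Genes that act around the MHC molecules were read from 8 lists, of which 28 genes were tested. None was called by limma in any list, against 4.98% of all tested genes. Of the 28, 4 had an unadjusted p under 0.05, a share of 23.1% over all genes. With shares like these, no call in a list this short says little about that list. The median log2 fold change of the 28 was -0.11, with 12 estimates above 0 and 16 below. Of the class II peptide handling list 0 of 3 were called: the protease cathepsin S (Ctss) had 192.4, 375.3 and 514.7 FPKM in old and 13.7, 409.2 and 1270 FPKM in young mice 1 to 3. Cathepsin L (Ctsl), another protease of the endosome, had 184.0, 424.5 and 345.1 FPKM in old and 665.8, 339.7 and 497.0 FPKM in young mice 1 to 3. Young mouse 1 was the lowest library for Ctss and the highest for Ctsl.

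Of the immunoproteasome list 0 of 3 were called. The catalytic subunit Psmb10 ranged from 121.9 to 159.6 FPKM in old and from 128.4 to 160.1 FPKM in young mice, and the activator subunit Psme2 from 192.3 to 263.8 FPKM in old and from 147.0 to 196.7 FPKM in young mice. The disulfide isomerase Pdia3, the 1 chaperone of class I loading tested, ranged from 207.1 to 260.4 FPKM in old and from 239.7 to 325.6 FPKM in young mice. In each of these 3 genes the groups overlapped. Of the promoter-binding factors of class II 0 of 4 were called. Rfxap, a subunit of the RFX complex that binds the X box, ranged from 14.8 to 18.1 FPKM in old and from 10.9 to 23.1 FPKM in young mice, and Nfyb, a subunit of the Y box factor, from 6.16 to 8.18 FPKM in old and from 7.27 to 9.97 FPKM in young mice.

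Of the interferon gamma list 0 of 6 were called. Irf1, a transcription factor induced by interferon gamma, ranged from 41.3 to 67.8 FPKM in old and from 31.0 to 70.4 FPKM in young mice, and the receptor subunit Ifngr2 from 21.9 to 34.1 FPKM in old and from 24.7 to 41.0 FPKM in young mice. Ifng itself, named after its values were seen, was at 1.07, 15.7 and 5.04 FPKM in old and 1.17, 4.32 and 14.5 FPKM in young mice 1 to 3. The groups overlapped in all 3 genes.

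Of the class I-like genes 0 of 3 were called. The neonatal Fc receptor Fcgrt had 81.7, 191.8 and 180.2 FPKM in old and 679.3, 166.2 and 173.4 FPKM in young mice 1 to 3, and was high in young mouse 1 alone. Azgp1 and Mr1, which presents microbial vitamin metabolites, ranged from 1.31 to 6.72 FPKM and from 1.26 to 5.10 FPKM over the 6 libraries. Of the costimulatory and inhibitory ligands 0 of 6 were called: Cd86 had 4.17, 7.08 and 13.2 FPKM in old and 0.663, 8.82 and 18.7 FPKM in young mice 1 to 3. Cd274, the inhibitory ligand PD-L1, had 2.36, 3.13 and 5.85 FPKM in old and 2.73, 4.80 and 14.9 FPKM in young mice 1 to 3. Young mouse 3 was the highest library for both. Of the ubiquitin ligases that turn over class II, 0 of 2 were called: March8 had 1.46, 1.38 and 1.86 FPKM in old and 4.39, 2.90 and 2.90 FPKM in young mice, with no overlap (limma adjusted p = 0.123), and March1 ranged from 0.529 to 2.50 FPKM in old and from 0.0948 to 4.09 FPKM in young mice.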

How the data were processed

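RNA-seq of 6 libraries, 3 old and 3 young mice, was analysed from 1 table per library in which the authors deposited FPKM values, per the file headers. The submitters' processing notes name CASAVA 1.7, Bowtie 0.12.2 and build mm8, with no role given. The sources used here do not give how FPKM was computed or how strand and multiple matches were handled.

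The tables were damaged after the first 2884 of 24720 rows, so a row was kept only with a well-formed gene identifier, a symbol and 6 readable values under 1000000. Of those, 26 were left out because a value was not a whole number of fragments (tolerance 1e-06 fragments plus 3e-13 of the value) for any gene length up to 150000 bases. In all 5683 rows (23%) were left out, and 18 other columns, filled in 432 rows only, were not used. Fragment counts follow from an implied length, which equals the GENCODE M21 length for 22 of the 34 genes. For the other 12, including all class II genes tested, counts are lower limits.

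Values were tested as log2(FPKM + 1), in genes with a mean of at least 1 FPKM, with limma 3.58.1 (R 4.3.3; eBayes with trend, two-sided, Benjamini-Hochberg threshold 0.05), old against young, after a check on simulated data. A fold change on this scale understates that of low genes. The labels say that each library is 1 mouse, so p-values measure the spread between mice. Coordinates are GENCODE M21 on GRCm38, and shared sequence was counted as 50-base words over its transcripts. The members and lists were chosen with earlier results of these data known. Values in every library are given for class II genes, H2-K1, H2-D1, B2m, the loading genes and the 6 other heavy chains of the highest level, and, of each list, any gene called or the 2 of the highest mean are named. Pseudocounts, filters, centring, quantile normalization, weights, a replicate block and single mice left out were tried as alternatives.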

Additional observations from a re-analysis of the deposited data

How the results depend on the processing

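17 alternatives were tried for the main counts and medians. The class II median was above 0 in 17 of 17 (1.25 to 3.10) and the class I median below 0 in 17 of 17; with young mouse 1 as the only young library, assumed to vary like the old ones, the class I median was -0.62. The number of all genes called, 498, was 223 with no filter, 292 at a mean of at least 5 FPKM, 126 with the replicate block and 0 with young mouse 1 alone (limma; 2289 at an unadjusted p under 0.05), and 84 to 403 with 1 mouse left out. Class II calls went from 1 to 0 with no filter, at 5 FPKM (where H2-Oa was not tested), with the replicate block and with young mouse 1 alone, and were 0 to 1 with 1 mouse left out. Class I calls were 0 to 0 with 1 mouse left out and 1 with library weights (H2-D1). The cause of these shifts was not tested.

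Over all 10010 tested genes, samples with the same number did not deviate together (r = -0.0941, -0.00324 and 0.0102 for numbers 1 to 3). The class II sum, however, rose from mouse 1 to mouse 3 in both groups. With the replicate block 5 of 6 class II genes had a limma unadjusted p under 0.05, against 2 in the main fit. Over all genes those counts were 1982 and 2315. Whether equal numbers pair the mice was not settled. Under the replicate block the limma adjusted p of H2-Oa was 0.0607, and with no filter 0.0640. The sign turned for H2-K2 (-0.26 without old mouse 3, -0.18 without young mouse 2, -0.26 to 0.35 with 1 mouse left out, and -0.12 with young mouse 1 alone), Tapbpl (0.075 without young mouse 1, range -0.18 to 0.075), Tap1 (0.076 without old mouse 2, range -0.35 to 0.076) and Erap1 (0.032 without young mouse 1, range -0.64 to 0.032). Depth limits the lowest genes: 3 fragments of a 2 kb gene are 0.0837 to 0.132 FPKM.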

Other observations

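Ratios between partner genes within a library were compared as descriptions chosen after the values were seen. H2-Oa over H2-Ob, the 2 chains of H2-DO, was 0.784, 1.63 and 1.38 in old and 0.212, 0.686 and 0.321 in young mice 1 to 3, with no overlap between groups (exact permutation test, two-sided p = 0.1, the smallest possible, Benjamini-Hochberg adjusted p = 0.267 over 8 ratios). H2-T23 over H2-K1 was 0.158, 0.224 and 0.263 in old and 0.379, 0.284 and 0.280 in young mice, again with no overlap and the same exact p. H2-Ab1 over H2-Eb1 overlapped, at 1.45 to 1.66 in old and 1.38 to 2.06 in young mice, although both levels varied over more than an order of magnitude. B2m over H2-D1 overlapped too, at 3.95 to 6.61 in old and 4.02 to 6.96 in young mice.

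Old mouse 2, the library that held 42 of the 43 fragments of H2-T3, also had the highest level of the T cell receptor component Cd3g, at 183.4 FPKM against 0.106 to 16.2 FPKM in the other 5 libraries. Markers of T and natural killer cells (0 of 5 tested called by limma) summed to 246.6, 373.4 and 71.8 FPKM in old and 2.87, 28.9 and 58.5 FPKM in young mice 1 to 3, and its part in the H2-T3 value was not tested.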
